A study of Mus musculus with 2 samples.

Results

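The immunoglobulin-class neural adhesion molecules described here are 10 genes chosen by name: Ncam1 and Ncam2, the L1 family members L1cam, Chl1, Nrcam and Nfasc, the contactins Cntn1 and Cntn2, and Alcam and Nptn. All 10 were found by symbol among the 45578 genes of the deposited table. The material was brain at postnatal day 5 from control animals of the Taiwanese spinal muscular atrophy line on a congenic FVB background. These mice are heterozygous for mouse Smn and carry the human SMN2 transgene (Smn+/-; SMN2tg/0), so every sample has reduced Smn dosage and none is wild type. Brain lysate was digested with nuclease, ribosomes were captured on RiboLace beads, which bind ribosomes engaged in translation, and protected fragments of 25 to 35 nucleotides were sequenced. The study holds 2 libraries of 1 group, called biological replicates in the labels, which do not say whether each came from its own mouse. There is no other condition.

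Cell adhesion molecules of this class carry immunoglobulin domains, and most of them also fibronectin type III domains, outside the cell. They bind like molecules or partners on neighbouring axons, dendrites and glia, and in the postnatal brain they are known for axon growth and bundling, synapse formation and the assembly of nodes of Ranvier. NCAM and L1 family proteins cross the membrane or, for some NCAM forms, hang on a lipid anchor. Contactins are lipid-anchored throughout. Their messenger RNAs are translated at the endoplasmic reticulum.

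Replicate 1 held 343552 counts at the gene level and replicate 2 held 120282. After scaling, 1 count was worth 2.71 CPM (counts scaled to a common library size) in replicate 1 and 8.93 CPM in replicate 2, so values of replicate 2 are the less precise. Markers of the labelled tissue were present: all 5 neuronal, all 6 astrocyte and radial glia and all 6 oligodendrocyte lineage markers had a mean of at least 10 counts over the libraries. Of 3 endothelial markers only 1 (Cldn5) reached that mean, and of 3 microglial markers only 1 (Csf1r). The choroid plexus marker Ttr had 395 and 153 counts, or 1070 and 1366 CPM. The summed neuronal markers stood at 5767 and 6787 CPM, those of astrocytes and radial glia at 2003 and 2366 CPM, and those of the oligodendrocyte lineage at 556 and 697 CPM. Of these markers only Tubb3, a neuronal tubulin, was called, higher in replicate 2 (log2 difference 0.33, counting SE 0.08, adjusted exact binomial p = 0.0037). It was 1 of the 5 neuronal markers. The share called was 4.14% of all genes tested and 0.956% of the protein-coding genes among them. The 4 globin genes, which mark blood, summed to 3797 and 4126 CPM. The liver gene Alb and the muscle gene Ckm had 0 counts in both libraries, while the muscle actin Acta1, which shares sequence with other actins, was listed with counts. The part of these other cell types in the levels below was not tested.

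The 10 genes together held 1404 counts in replicate 1 and 422 in replicate 2, or 0.409% of gene counts (95% Wilson interval 0.388 to 0.431) and 0.351% (0.319 to 0.386). Of protein-coding counts alone the shares were 0.502% (0.477 to 0.529) and 0.480% (0.436 to 0.528). The first pair of intervals did not overlap and the second pair did. Intervals here and below cover counting error only, not variation between replicates, and take reads as independent. Amplified reads carry no molecular identifiers and so may repeat a molecule, in which case the intervals are too narrow. Within the set, the L1 family took 41.8% of counts in replicate 1 and 43.6% in replicate 2, the NCAM pair 31.6% and 34.1%, and the contactins 17.3% and 15.2%. Ncam1 alone took 27.6% (95% Wilson interval 25.3 to 29.96) and 31.5% (27.3 to 36.1), the largest share of any of the 10 genes in either library.

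Levels of different genes are compared as footprint density. This is the CPM of a gene divided by the coding length, in kilobases, of its transcript with the highest count. Counts are those of whole transcripts, so fragments in untranslated regions enter the count but not the length. The 3′ untranslated regions of the transcripts used ran from 86 nucleotides for Nfasc to 3752 for Cntn2. On the density scale Ncam1 was highest and Nfasc lowest, 13.6-fold apart in mean density. Ncam1 was also highest under each alternative transcript, length and scaling, whereas Cntn2 was lowest, at 15.96 against 22.8 for Nfasc, per whole transcript length. Cntn2 was lowest as well with the coding isoforms of each gene summed, at 108 against 127 for Nfasc, a sum that counts fragments repeatedly. Between them the genes ran in the order Chl1, Nptn, Cntn1, L1cam, Alcam, Nrcam, Ncam2 and Cntn2. In whole brain, fewer cells of a type and less RNA per cell cannot be told apart, and neither can messenger abundance and ribosomes per messenger, since no RNA library was analysed here.

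**Figure D1:**
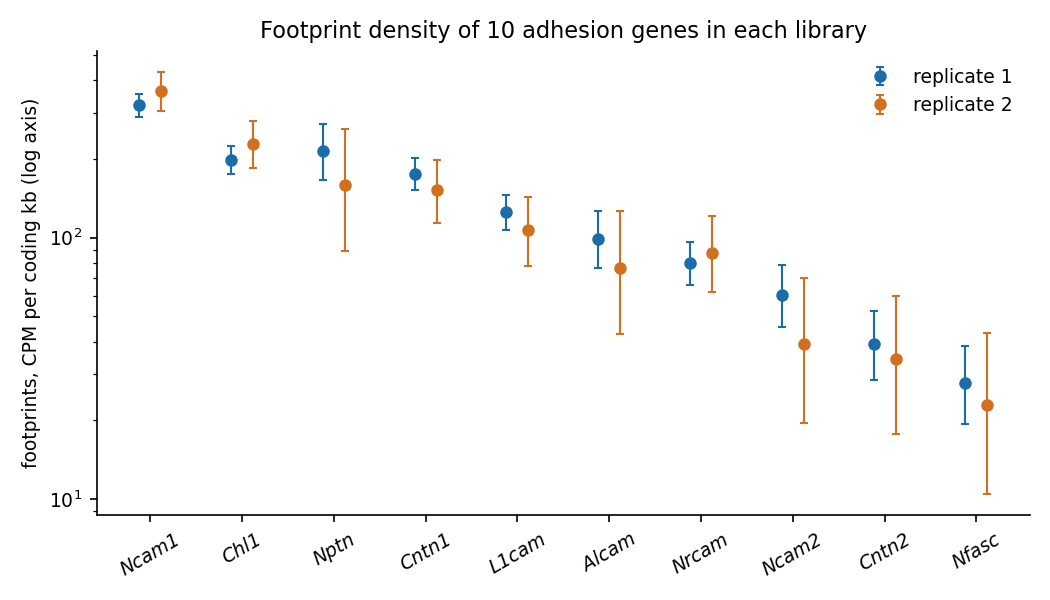
Footprint density (CPM per coding kilobase, log axis) of each adhesion gene in replicate 1 and replicate 2; points are single libraries and bars are exact 95% Poisson intervals. Ncam1 sits at 321 and 363 at the top, Nfasc at 27.7 and 22.8 at the bottom, and intervals widen as counts fall.

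Ncam1 (ENSMUSG00000039542; chr9:49502129-49799393 in the RefSeq annotation of GRCm38.p6) encodes the neural cell adhesion molecule, the main carrier of polysialic acid in the brain. Its counts were 387 in replicate 1 and 133 in replicate 2. The densities were 321 CPM per coding kb (exact 95% Poisson interval 290 to 354) and 363 (304 to 431), a mean of 342 ± 30.04 (SD, n = 2). Both values lay above those of each other member in either library. Ncam1 ranked 412 among the 4294 protein-coding genes that passed the count filter and had a coding length. The transcript used for it is annotated without a 5′ untranslated region and with a coding length that is no multiple of 3, so it is incomplete at its start. With the transcript of highest count that has both untranslated regions, a choice made after the table was seen, the mean density was 420 CPM per coding kb.

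Ncam2 (ENSMUSG00000022762; chr16:81200697-81624290), the paralog best known from olfactory axons, had 56 and 11 counts. Its densities were 60.4 and 39.1 CPM per coding kb, with a mean of 49.7 ± 15.1 (SD, n = 2). Ncam1 exceeded Ncam2 5.31-fold in replicate 1 (exact 95% interval 4.01 to 7.17) and 9.30-fold in replicate 2 (5.03 to 19.1). The intervals of this ratio exclude equality in each library and overlap each other.

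Chl1 (ENSMUSG00000030077; chr6:103510584-103733038), the close homolog of L1, was the densest member of the L1 family by its transcript of highest count. It had 266 and 93 counts, or 199 CPM per coding kb (exact 95% Poisson interval 175 to 224) and 229 (185 to 280), with a mean of 214 ± 21.4 (SD, n = 2). The table lists 1 transcript for Chl1, so its value does not depend on the choice of isoform. With the coding isoforms of each gene summed, which counts fragments repeatedly, L1cam stood above it, at 683 against 214.

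L1cam (ENSMUSG00000031391; chrX:73853778-73880838), the founding member of the family and a growth and bundling molecule of axons, had 174 and 45 counts. Its densities were 125 and 107 CPM per coding kb. Nrcam (ENSMUSG00000020598; chr12:44328786-44605194), which takes part in node assembly and axon guidance, had 111 and 37 counts and densities of 79.8 and 87.6. Nfasc (ENSMUSG00000026442; chr1:132564690-132741848), whose neuronal and glial forms meet at the node and the paranode, had 36 and 9 counts and densities of 27.7 and 22.8. The 4 family members kept the same order in both libraries, and their ranges did not overlap.

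Chl1 stood above L1cam 1.59-fold in replicate 1 (exact 95% interval 1.31 to 1.93) and 2.15-fold in replicate 2 (1.49 to 3.13). It stood above Nfasc 7.18-fold (5.05 to 10.5) and 10.03-fold (5.06 to 22.6). Nrcam exceeded Nfasc 2.88-fold (1.96 to 4.32) and 3.84-fold (1.82 to 9.05). For L1cam against Nrcam the ratio was 1.57 (1.23 to 2.01) in replicate 1 and 1.22 (0.770 to 1.93) in replicate 2, where the interval includes equality. That step of the family order was therefore not resolved at the depth of replicate 2.

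Cntn1 (ENSMUSG00000055022; chr15:92051152-92341967), a contactin that pairs with Caspr at the paranode and binds tenascins and the phosphatase Ptprz1, had 198 and 52 counts. Its densities were 175 and 152 CPM per coding kb, with a mean of 163 ± 16.7 (SD, n = 2). Cntn2 (ENSMUSG00000053024; chr1:132509425-132543251), known as TAG-1 and expressed on growing axons and juxtaparanodes, had 45 and 12 counts and densities of 39.0 and 34.3. Cntn1 exceeded Cntn2 4.49-fold in replicate 1 (exact 95% interval 3.23 to 6.35) and 4.42-fold in replicate 2 (2.33 to 9.09), with overlapping intervals. Cntn2 and Nfasc are neighbouring protein-coding genes on chromosome 1, and they were the lowest of the 10 genes in both libraries.

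Nptn (ENSMUSG00000032336; chr9:58582240-58652879) encodes neuroplastin, a small glycoprotein that assembles with plasma membrane calcium pumps. It had 67 and 15 counts on a coding sequence of 846 nucleotides, the shortest of the set, against 1752 to 3771 for the others. The densities were 215 CPM per coding kb (exact 95% Poisson interval 166 to 273) and 158 (88.6 to 261). Nptn therefore ranked 3 by density while taking 4.77% and 3.55% of the counts of the set. Its place depended on the transcript: with the isoform of longest coding sequence the mean density was 132, at rank 4 of 10, and per whole transcript length it was at rank 5. With coding isoforms summed it was at rank 2, as it was in replicate 1 alone.

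Alcam (ENSMUSG00000022636; chr16:52248996-52453081), an adhesion molecule of axons and of activated leukocytes, had 64 and 15 counts. Its densities were 99.0 and 76.5 CPM per coding kb. The range of Alcam overlapped that of Nrcam, and the pair changed places between the libraries.

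Of the 9 pairs of neighbours in the order of mean density, 6 had ranges over the libraries that did not overlap. The overlapping pairs were Chl1 and Nptn, Nptn and Cntn1, and Alcam and Nrcam. Counting error was the stricter measure: Ncam1 over Chl1 was the only neighbouring pair whose exact 95% interval lay above 1 in both libraries, at 1.62-fold (1.38 to 1.90) and 1.59-fold (1.21 to 2.09). The log2 densities of the 10 genes correlated between the libraries with a Pearson r of 0.979, given as a description, since the genes share their libraries and were not picked at random. The rank within the set was the same in both libraries for 6 of the 10 genes.

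Set beside other protein-coding genes, the median of the set was 102 CPM per coding kb, beside 62.3 for the 4294 protein-coding genes past the filter, whose quartiles were 30.9 and 143. Of the 10 genes, 7 stood above that median, while Ncam2, Cntn2 and Nfasc stood below it. The set was also long: the median coding length was 3196 nucleotides, beside 1398, and 9 of the 10 genes were longer than that reference. A filter on counts keeps long genes at lower density than short ones. Against all 20757 protein-coding genes with a coding length, Nfasc lay at percentile 76.1 and Ncam1 at percentile 98.0.

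All 10 genes passed the count filter, a mean of at least 10 counts over the libraries. None differed between the libraries by the 2-sided exact binomial test with Benjamini-Hochberg adjustment over the 5436 genes tested. At an unadjusted p under 0.05 the count was also 0, and edgeR's exact test with a preset biological coefficient of variation of 0.2 gave 0 as well. Over all genes tested, 225 were called, or 4.14%, and 217 of these (3.99%) were higher and 8 (0.147%) lower in replicate 2. Among the 4392 protein-coding genes 42 were called, or 0.956%, so no call among 10 genes is close to the background. This test compares the reads of these libraries, not conditions.

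Differences between the libraries were expressed as log2(CPM + 1) in replicate 2 less that in replicate 1. They ran from -0.62 for Ncam2 to 0.20 for Chl1. Ncam1, Chl1 and Nrcam were higher in replicate 2 and the other 7 lower, with a median of -0.22 beside -0.02 for coding genes past the filter. The best-measured member, Ncam1, stood 0.18 higher in replicate 2 (counting SE 0.14). The exact 95% interval of its log2 CPM ratio was -0.12 to 0.47 (adjusted exact binomial p = 0.873). Ncam2 had the widest departure (counting SE 0.47), with an interval of -1.71 to 0.32 and an adjusted exact binomial p of 0.887. For Nfasc, with 45 counts in sum, the interval of the log2 CPM ratio ran from -1.52 to 0.80, wide enough to hold differences of either sign. With library totals in place of the TMM scaling, the ratios of Ncam1, Chl1 and Nrcam turned to -0.03, -0.0020 and -0.07. The median ratio of all genes tested moves from 0.0041 to -0.20 with that scaling.

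**Figure D2:**
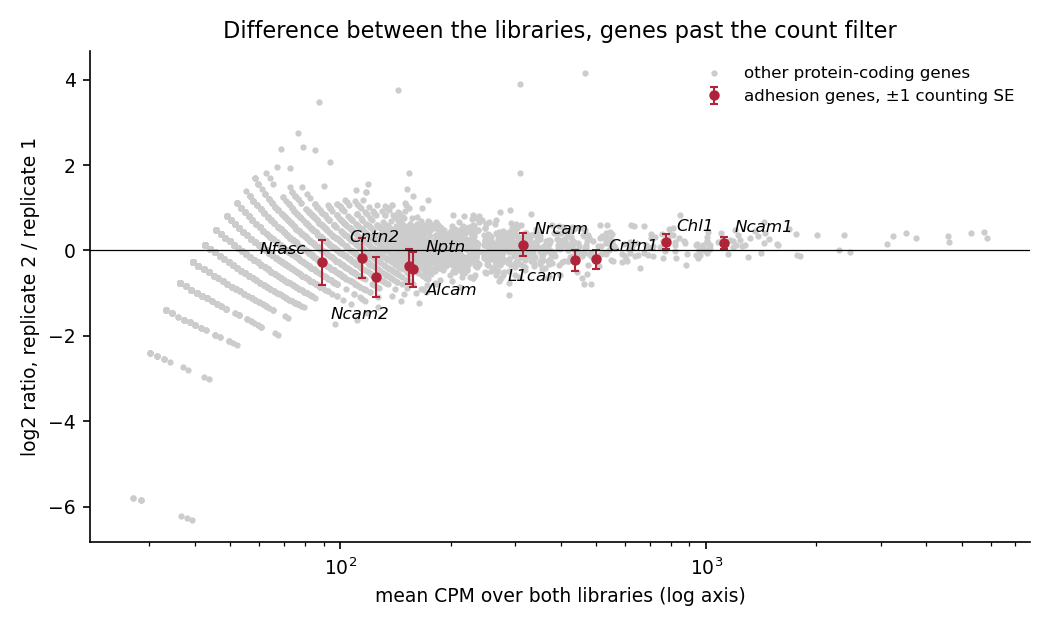
Log2 ratio of replicate 2 over replicate 1 against mean CPM (log axis) for protein-coding genes past the count filter (grey) and the 10 adhesion genes (red, bars of 1 counting SE). The red points lie between -0.62 for Ncam2 and 0.20 for Chl1, within the grey cloud at their abundance.

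The table lists 66 transcripts of these genes, of which 40 are protein coding and 15 are retained introns. Counts of the coding isoforms of a gene ran widely where their lengths did, as in L1cam, from 15 to 174 in replicate 1. In Cntn1, isoforms of equal coding length had nearly equal counts: its 3 coding transcripts had 198, 187 and 190 in replicate 1 and 52, 52 and 53 in replicate 2. Nptn-012 and Nptn-201, of 834 coding nucleotides each, were less close, with 57 and 49 counts in replicate 1 and 17 and 14 in replicate 2. A fragment therefore appears to be counted for each transcript it matches, and what bears on isoforms is the difference between transcripts, not the count of each. The retained-intron transcript Cntn2-002 reached 39 and 12 counts, against 45 and 12 for the coding transcript Cntn2-001, and it also contains most of the exon sequence to judge by its length of 7334 nucleotides. Its count is no measure of intron retention.

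The larger forms of NCAM cross the membrane and differ from each other by an added stretch of cytoplasmic tail, while the smallest main form is lipid-anchored. Transcript Ncam1-006, with a coding length of 3269 nucleotides, had 19 counts more in replicate 1 and 5 more in replicate 2 than Ncam1-001, with 2547. At the density of Ncam1-001 the 722 added coding nucleotides would hold 104 and 36.3 counts. The surplus was 4.91% (exact 95% interval 2.98 to 7.56) and 3.76% (1.23 to 8.56) of the counts of Ncam1-006, beside 22.1% at even coverage, which both intervals exclude. The difference is net of whatever Ncam1-006 lacks at its incomplete start. The intervals do not cover that loss, so they exclude even coverage only if few counts were lost there.

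Ncam1-001 and Ncam1-002 differ by 3 coding nucleotides and by 2912 nucleotides of 3′ and 53 nucleotides of 5′ untranslated region. Ncam1-001 had 52 and 25 counts more. If all of these lay in the 3′ region, they would amount to 17.9 and 8.59 counts per kb of added 3′ untranslated region, beside 124 and 40.4 counts per coding kb of Ncam1-002. Ncam1-005, with 2178 coding nucleotides, had 288 and 77 counts.

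Cntn1 and Nptn gave further readings of the 3′ untranslated region. Cntn1-001 has the coding length of Cntn1-002 and 1839 nucleotides more of 3′ untranslated region, and it had 11 and 0 counts more, where the coding density would give 103 and 28.6 over the added transcript length. Nptn-012 has 1034 more such nucleotides than Nptn-201 at the same coding length, and 8 and 3 counts more where the coding density would give 60.8 and 17.4. The largest of these surpluses, that of Nptn in replicate 2, was 17.3% of the counts that coding density would give, a point value from 3 counts. Its exact Poisson interval ran from 0.619 to 8.77 counts, and that of replicate 1 from 3.45 to 15.8. For Cntn1 in replicate 1 the interval was 5.49 to 19.7. These upper limits lay below the counts given by coding density, taken as fixed. The 5′ untranslated region of Cntn1-001 has 219 nucleotides against 376 in Cntn1-002, so its surplus is net of any counts lost there.

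Neuroplastin has a long form with an additional amino-terminal immunoglobulin domain and a short form without it. Nptn-003, with 1194 coding nucleotides, had 60 and 17 counts, and Nptn-201, with 834 and likewise no 3′ untranslated region, had 49 and 14. The 360 added coding nucleotides of Nptn-003 came with 11 and 3 counts, where the density of Nptn-201 would give 21.2 and 6.04. These are 18.3% (exact 95% interval 9.52 to 30.4) and 17.6% (3.80 to 43.4) of the counts of Nptn-003, beside 30.2% at even coverage of its coding sequence. Both intervals include even coverage, so a lower density of the added stretch was not resolved at this depth. Nptn-003 also has 167 nucleotides more of 5′ untranslated region, which are part of the difference.

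Nrcam-201 and Nrcam-202 have equal untranslated regions and differ by 210 coding nucleotides. The longer had 1 count more in replicate 1 and 6 more in replicate 2, where the density of the shorter would give 6.49 and 1.83, so the libraries went opposite ways around the even value. The Ncam2 transcripts also changed places. Ncam2-002, with 2514 coding nucleotides, had 56 and 11 counts, while Ncam2-001, with 2184 and a 3′ untranslated region longer by 1660 nucleotides, had 41 and 18. The 5 complete coding transcripts of Nfasc, of 2700 to 4044 coding nucleotides, had 23 to 36 counts in replicate 1 and 4 to 10 in replicate 2, too few to tell its forms apart. Longer forms did not always have the higher count: Cntn1-201 is longer than Cntn1-001 in both untranslated regions and had 8 counts fewer in replicate 1. Transcripts of a pair are therefore not strictly contained in each other, and the differences above are approximate.

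**Figure D3:**
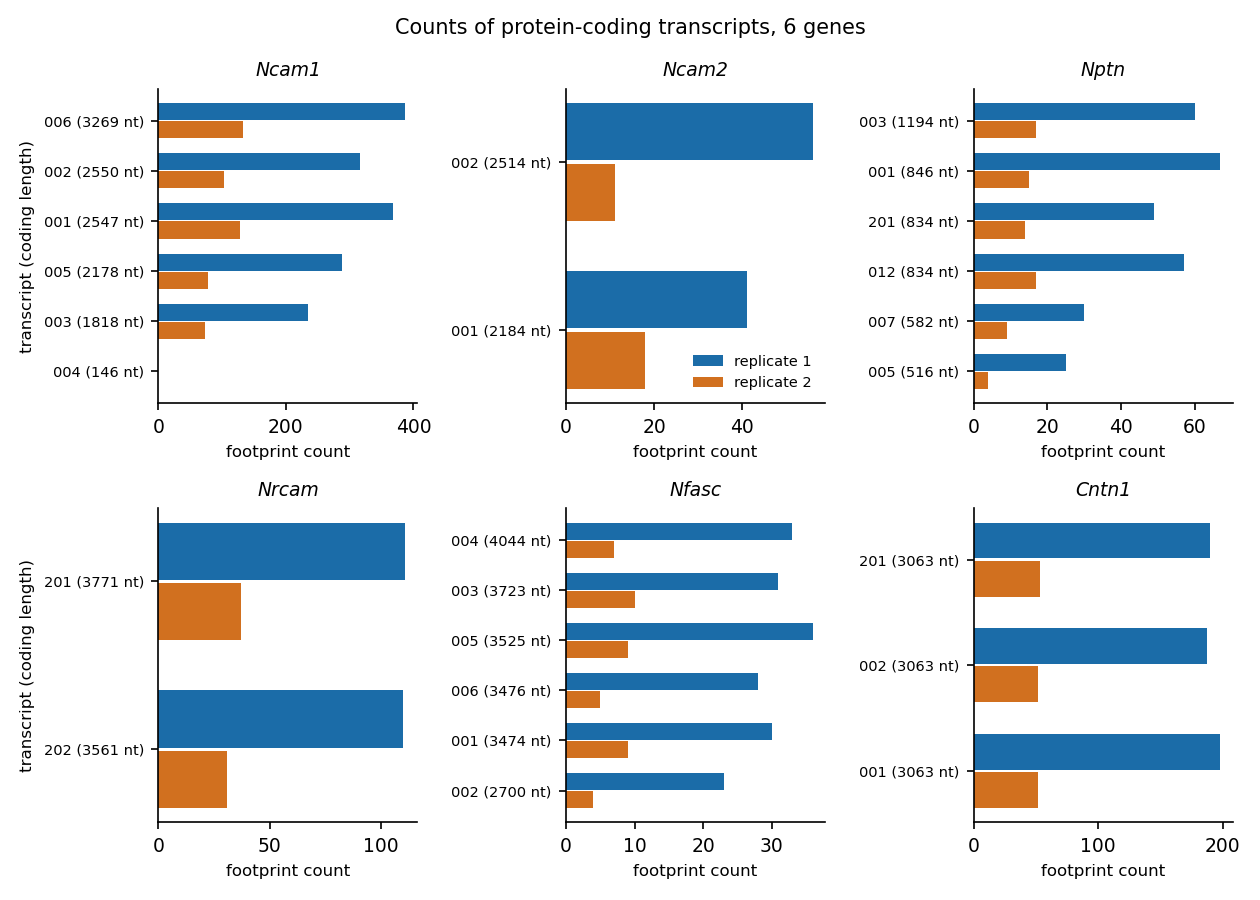
Footprint count of each protein-coding transcript of 6 adhesion genes in replicate 1 and replicate 2, with coding length in parentheses; bars start at 0. Ncam1-006 (387 and 133) barely exceeds Ncam1-001 (368 and 128), and the Ncam2 transcripts change places between the libraries.

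Genes that work with these molecules were taken from 8 lists by role, of which 80 of 83 symbols were matched and 55 genes passed the count filter. The symbols not matched were Nectin1, Nectin2 and Nectin3, listed in the table under their older names. Among the other immunoglobulin-class adhesion genes 19 of 33 passed, and 0 were called by the exact binomial test. The densest were Thy1, a small lipid-anchored molecule, at 462 ± 59.6 CPM per coding kb (SD, n = 2), Cadm4, a nectin-like molecule, at 330 ± 22.8, and Bsg, the basigin paralog of neuroplastin, at 300 ± 40.4 (each SD, n = 2). By mean density Ncam1, at 342, lay between Thy1 and Cadm4. Its order with Cadm4 was not the same in both libraries: Ncam1 stood at 321 and 363, Cadm4 at 346 and 314. The contactins outside the set were low: Cntn3, Cntn4, Cntn5 and Cntn6 had 6, 13, 7 and 13 counts in replicate 1 and 4, 2, 4 and 1 in replicate 2, and none passed the filter. Their mean densities of 7.69 to 8.62 lay below the 36.7 of Cntn2.

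For the partners of the NCAM and L1 proteins, the enzymes that build polysialic acid on NCAM were both listed with counts. St8sia2 had 49 and 19 counts and 134 ± 23.1 CPM per coding kb (SD, n = 2), and St8sia4 had 8 and 3 counts, under the filter, and 22.4 ± 3.35. Of the ankyrin and spectrin genes, which anchor L1 family tails to the membrane skeleton, 5 of 7 passed and 0 were called. Sptbn1 stood at 91.3, Sptan1 at 82.7 and Ank2 at 54.8, levels near those of Alcam, Nrcam and Ncam2. Of the contactin-associated genes 4 of 6 passed and 0 were called, led by Cntnap2 at 34.4, Cntnap5a at 18.6 and Cntnap4 at 11.6. Cntnap1, the Caspr that pairs with Cntn1, had 15 and 5 counts and 10.3 CPM per coding kb, beside 163 for Cntn1.

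Among ligands and co-receptors 11 of 14 passed and 0 were called, with the heparin-binding factor Ptn at 1600, the prion protein Prnp at 380 and the proteoglycan Ncan, a ligand of Ncam1 and L1cam, at 312. Of 3 sheddases 2 passed and 0 were called: Bace1, which cleaves Chl1, stood at 45.6 and Adam10 at 38.8. Of the intracellular partners 7 of 9 passed, with Gap43 at 1612, Rhoa at 360 and Ap2m1 at 285. Rdx, a linker of membrane proteins to actin, was called, 1 gene of the 55 (1.82%) beside 0.956% of all coding genes tested, with 34 and 25 counts and a log2 difference of 1.27 (counting SE 0.38, adjusted exact binomial p = 0.0285). All 6 neuroplastin partners passed and 0 were called, led by the calcium pump Atp2b1 at 114, the lactate carrier Slc16a1 at 101 and the pump Atp2b2 at 62.7. Nptn itself, at 186, stood above each of these 6.

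**Figure D4:**
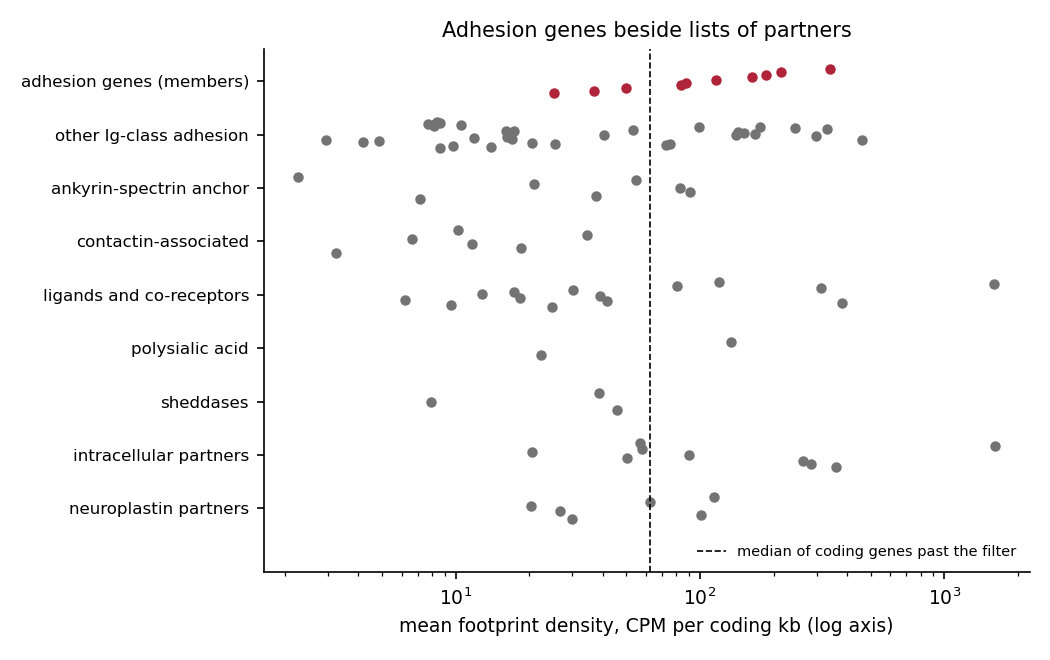
Mean footprint density over both libraries (CPM per coding kilobase, log axis) of the 10 adhesion genes (red) and of the genes in each list of partners (grey); the dashed line is the median of protein-coding genes past the filter, 62.3. Of the adhesion genes 7 lie to its right, and the contactin-associated genes all lie to its left.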

How the data were processed

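Ribosome footprints of 2 RiboLace libraries were analysed as the raw counts per transcript that the authors deposited; lengths of transcripts and their regions came with the same deposited table. The submitters' processing notes name Trimmomatic 0.36, Bowtie2 2.2.6, SAMtools and the build GRCm38.p4; the counting tool and annotation release are not given in the sources used here. For each gene the transcript of highest summed count stood in. CPM used effective library sizes from edgeR 4.0.16 (TMM factors 1.07 and 0.931) computed on genes averaging 10 or more counts. As there is 1 group, the libraries were compared by a 2-sided exact binomial test per gene, Benjamini-Hochberg adjusted at 0.05. Tested on simulated data for this comparison, it called 14.1% of genes changed 2-fold (5448 genes tested) and 54.6% of those changed 3-fold (5495 genes tested). Unchanged genes called numbered 0 and 6 in these simulations. The simulated counts held Poisson counting error alone, so the rates leave out any further variation between the real libraries. Ratios between genes carry exact binomial intervals. DESeq2 1.42.0 size factors, other transcripts, lengths and filters were alternatives. Members and lists were chosen with earlier results of these data known; all members were named, and of each list of partners the 3 densest genes past the filter and any called gene, apart from a listed gene that is not reported here, while Cntn3 to Cntn6, Cntnap1 and St8sia4 were added after their values were seen. Pairs of isoforms were chosen after the table was seen. Gene positions are RefSeq's, matched by symbol, in GRCm38.p6; patch releases share chromosome coordinates. The strand used in counting is not stated; of the RefSeq genes that overlap members, the 4 in the table had 0 counts.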

Additional observations from a re-analysis of the deposited data

How the results depend on the processing

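No paired analysis was possible because the study has a lone group. No adhesion gene was called under any of the 8 alternatives of the test, of which the filter of 50 mean counts left 5 of them to test; the lowest adjusted p was 0.155, for Alcam with isoforms summed. Of 75 alternative log2 ratios 70 kept their sign. With library totals the ratios of Ncam1, Chl1 and Nrcam became -0.0268, -0.0020 and -0.0706, that of Nrcam became -0.0400 without the count filter, and that of Ncam2 became 0.0432 with isoforms summed. The 225 genes called over all classes became 75 at a filter of 50 mean counts (fewer genes tested) and 22 among protein-coding genes alone, which changes the scaling as well as the genes. They became 605 with isoforms summed, which counts fragments repeatedly, and 131 at a biological variation preset to 0.2. The filter of 50 mean counts moved the adhesion genes past it from 10 to 5. Leaving out a replicate left between 9 and 10. The median density of 102 became 59.8 per whole transcript length and 258 with coding isoforms summed, which counts fragments repeatedly. The share of gene counts of 0.380% became 0.491% of coding counts alone and 0.604% with isoforms summed. Leaving out a replicate moved the share between 0.351% and 0.409%, and the median density between 97.1 and 112. Where no construction is named, the cause was not tested. Depth limited the members with few counts, Nfasc, Cntn2 and Ncam2, most.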
